A study of Mus musculus with 6 samples.

Results

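Clone A1 is 1 of 3 mouse embryonic stem cell clones in the series, and its 2 arrays were set against the 4 arrays of clones B3 and C6. The 6 Affymetrix whole-genome arrays were assigned to clones by the clone name in each sample title, with no measured value used. The quantity described is the steady difference between the clones, averaged over both induction states. All 3 clones derive from EB3 (EBRTcH3), an embryonic stem cell line descended from E14 cells. In each, the human GTF2I coding sequence with a 3xFLAG tag had been placed at the Rosa26 locus behind a promoter that tetracycline keeps silent. Every clone gave 1 array from cells kept in tetracycline (uninduced, 0 h without it) and 1 array from cells 24 h after its removal (induced). The cells were kept in medium with leukemia inhibitory factor. The transgene is GTF2I by the sample titles, which were followed, although GTF2IRD2 stands in another label field. The authors' methods also name A1, B3 and C6 as the GTF2I clones. A1 is a single clone, so its 2 arrays are not 2 independent clones. The p-values below measure the spread between arrays and not the spread over further clones.

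Embryonic stem cells that share 1 parental line can differ from clone to clone in a lasting way. Imprinted genes, which are expressed from 1 parental copy only, are known to vary between such clones. So are the Y chromosome of male lines and the number of copies of chromosome segments, both of which can change in culture. A set of pluripotency factors led by Pou5f1, Nanog and Sox2 keeps the cells undifferentiated. Movement from the naive state toward the primed epiblast is known to raise genes such as Fgf5, Otx2, Zic2 and Zic5. Only RNA was measured here.

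The cell type of the labels was checked first. The 8 embryonic stem cell markers lay between 10.4 and 14.25 on the log2 scale in all arrays, with medians of 12.52 in A1 and 12.41 in the other clones. None of the 8 passed the test between A1 and the other clones. Of 7 fibroblast feeder markers 1 had a mean of at least 6, as did 0 of 5 primitive endoderm markers, 1 of 4 trophectoderm markers and 2 of 4 neural markers. None of these markers passed the test. Array medians lay between 5.06 and 5.11.

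By state, the 2 arrays of A1 ran opposite to those of the other clones. The induced A1 array correlated with the uninduced arrays of B3 and C6 at 0.9940 and 0.9947, and with their induced arrays at 0.9921 and 0.9910. For the uninduced A1 array the order was turned, with 0.9925 and 0.9935 against the induced arrays and 0.9912 and 0.9928 against the uninduced ones. A probe set of Cbl, a ubiquitin ligase gene, read 8.35 in the uninduced and 6.09 in the induced A1 array. In B3 it read 6.25 and 8.66, and in C6 6.01 and 8.58. An interaction of clone and state was called for 3 probe sets, or 0.00666% of those tested, and for 1219 when each clone entered as a fixed replicate block. The average differences given below are the same whichever way the states of A1 run, but their errors are not. Values given by state below take the labels as they stand, and would change if those of A1 were crossed. Whether they are crossed was not tested.

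Against B3 and C6, A1 differed in 221 of 45037 probe sets (limma, adjusted p under 0.05), which is 0.491% of those tested. Of these, 168 were higher in A1 (0.373%) and 53 were lower (0.118%). With 1 probe set kept for each gene, 138 of 18193 genes were called, or 0.759%. They comprised 102 higher genes (0.561%) and 36 lower ones (0.198%). A difference of at least 1 on the log2 scale was reached by 56 of the higher and 22 of the lower genes. Called or not, 8157 of the 18193 genes were higher in A1 and 10036 lower. Counts of higher and lower members of the lists below stand beside these. The same test called 53 probe sets for B3 against the other clones (0.118%) and 1 for C6 (0.00222%). These counts are not independent, since each clone also stands in the arm that the others are set against. They do not rank the clones. Without the induced A1 array, 59 probe sets were called for B3. The number of calls for A1 depended on single arrays. It was 18 without the uninduced and 3 without the induced A1 array, 41 and 12 without the uninduced and the induced B3 array, and 12 and 127 without those of C6.

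The widest differences called were in Aass and Mest, both lower in A1, and these were the only named genes called under all 20 alternative settings run. Aass encodes the mitochondrial enzyme that opens the breakdown of lysine. Mest is an imprinted gene expressed from the paternal copy. Both lie on chromosome 6. The stretches upstream of their transcription starts are shown because these genes had the widest differences called. Which start these cells use was not measured. A further Mest start in RefSeq, within a few bases of the second, is not shown. They come from RefSeq (GRCm38.p6), hold the 250 bases before the start, and run 5′ to 3′ on the strand of the gene, with each CG in capitals. A CG reads the same on both strands, and CG methylation of the Mest start region is the known mark of its imprint. Methylation was not measured here.
Mest, first start: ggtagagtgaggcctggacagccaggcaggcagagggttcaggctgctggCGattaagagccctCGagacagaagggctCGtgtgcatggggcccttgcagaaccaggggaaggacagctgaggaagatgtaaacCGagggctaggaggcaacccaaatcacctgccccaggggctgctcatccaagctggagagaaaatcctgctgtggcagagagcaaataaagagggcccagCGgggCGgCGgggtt
Mest, second start: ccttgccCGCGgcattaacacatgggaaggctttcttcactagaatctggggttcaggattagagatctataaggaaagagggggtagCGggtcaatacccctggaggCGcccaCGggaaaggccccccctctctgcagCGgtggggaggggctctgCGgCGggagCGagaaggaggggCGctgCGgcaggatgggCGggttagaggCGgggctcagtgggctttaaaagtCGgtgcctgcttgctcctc
Aass: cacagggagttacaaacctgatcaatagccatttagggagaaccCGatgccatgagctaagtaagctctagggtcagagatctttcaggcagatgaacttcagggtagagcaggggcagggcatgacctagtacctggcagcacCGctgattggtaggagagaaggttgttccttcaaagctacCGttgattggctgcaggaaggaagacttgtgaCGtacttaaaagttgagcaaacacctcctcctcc
The first Mest window lies at chr6:30733256-30733505 and holds 7 CG, a number reached by 46.3% of 32851 promoters of that length. The second, at chr6:30737800-30738049, holds 14 CG, which 29.4% of promoters reach. Aass, on the minus strand at chr6:23132987-23133236, has 4 CG, which 62.2% of promoters reach.

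Mest read 5.90 and 6.01 in the uninduced and induced A1 arrays. It read 9.83 and 9.54 in B3 and 9.90 and 9.79 in C6. The A1 arrays lay more than 3 log2 units under the other 4, which were close together. The difference was -3.81 ± 0.13 (SE; limma, adjusted p = 0.000156), a value 14 times lower in A1. Aass read 5.81 and 5.50 in A1, against 9.42 and 9.45 in B3 and 9.54 and 9.60 in C6. Its difference was -3.85 ± 0.12 (SE; limma, adjusted p = 0.000156), or 14.4 times lower. Cells that lack the RNA and cells with less of it cannot be told apart in such bulk values. On average, the genes beside Mest differed little from the other clones. Copg2, which lies tail to tail with Mest, differed by 0.03 and was not called. Its difference was 0.28 against B3 and -0.23 against C6. Klf14 and Cep41 differed by -0.12 and -0.18. Beside Aass, Fam3c and Ndufa5 differed by -0.16 and 0.04, also without a call.

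Mest was 1 of 3 called genes among 40 measured imprinted genes, beside 0.759% of all genes called. Of the 40, 28 were lower and 12 higher, beside 10036 lower and 8157 higher of all 18193 genes. Ddc, which encodes aromatic amino acid decarboxylase, was lower by -0.86 ± 0.12 (SE; adjusted p = 0.0376). Cdkn1c, a maternally expressed inhibitor of cyclin-dependent kinases, was higher by 0.92 ± 0.14 (SE; adjusted p = 0.0496). It read 9.54 and 9.57 in A1, against 8.44 and 8.52 in B3 and 8.79 and 8.78 in C6. The median over the list was -0.07, beside -0.02 over all genes. Nnat, a paternally expressed gene, read 4.49 and 4.97 in A1, 5.57 and 5.51 in B3 and 7.28 and 6.47 in C6. Its difference of -1.48 was not called (adjusted p = 0.401). The RNAs of the Dlk1 to Meg3 region differed by 0.17 (Dlk1), -0.14 (Meg3), -0.08 (Rian) and -0.10 (Mirg), and none was called.

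After Aass and Mest, the lower genes were led by Esrp1, Otx2, Nrp2, Egr1 and Plac8. Esrp1, an RNA-binding protein that sets epithelial splicing, read 6.64 and 6.44 in A1 and 8.41 to 8.78 in the other arrays, a difference of -2.09 ± 0.14 (SE; adjusted p = 0.00456). Nrp2, a co-receptor for semaphorins and VEGF, read 6.24 and 6.22 against 8.11 to 8.24. Its other 3 probe sets were lower as well, 2 of them with a call. Egr1, an immediate early transcription factor, read 7.94 and 7.91 against 9.37 to 9.77, and differed by -1.73 ± 0.13 (SE; adjusted p = 0.00888). In these genes the A1 arrays lay under all others by over 1 log2 unit and close to each other. Stx3, a syntaxin of the apical membrane, was lower in each of its 4 probe sets, by -0.88 to -1.47, all called. Trh, the precursor of thyrotropin-releasing hormone, read 10.07 and 10.18 against 11.23 to 11.72. Plac8 and Efhc2 differed by -1.68 and -1.62, and Lpar4, Pga5, 1700042O10Rik and Tdrd12 by -1.23 to -1.20. Lpar4 encodes a receptor for lysophosphatidic acid and Tdrd12 a tudor protein of the piRNA pathway.

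The higher genes came from many families. Nkx6-3, a homeobox gene, read 8.0 and 8.37 in A1 and 5.56 to 6.54 elsewhere, 4.3 times higher (2.10 ± 0.24, SE; adjusted p = 0.0241). Satb1, a chromatin organizer, read 7.57 and 7.72 against 5.32 to 6.03. A second probe set of Satb1 was higher by 1.74 with a call, and 3 dim ones differed by -0.19 to 0.12. Cited4, which binds the coactivators CBP and p300, read 7.02 and 6.83 against 4.87 to 5.06 (1.95 ± 0.10, SE; adjusted p = 0.00158). Its other probe set, near the array median, differed by -0.11. Stra8, a gene of the entry into meiosis, read 8.44 and 8.13 against 6.30 to 6.81. Myl4, an embryonic myosin light chain, and Cabp1, a calcium-binding protein, were higher by 1.64 and 1.56. The remaining leading genes were Ppp1r14d, Cd37 and Catsperz, at 1.49 to 1.68, and those of chromosomes 14, 15 and Y described below. Second probe sets of Myl4 and Cd37, both dim, differed by -0.025 and 0.135. Both A1 arrays stood above the other 4 in the brightest probe set of each leading gene, and lying outside them was a condition of the choice. The A1 arrays also lay outside the other 4 in all 138 called genes, which the test favours, and in some uncalled genes, such as Sox2.

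**Figure D1:**
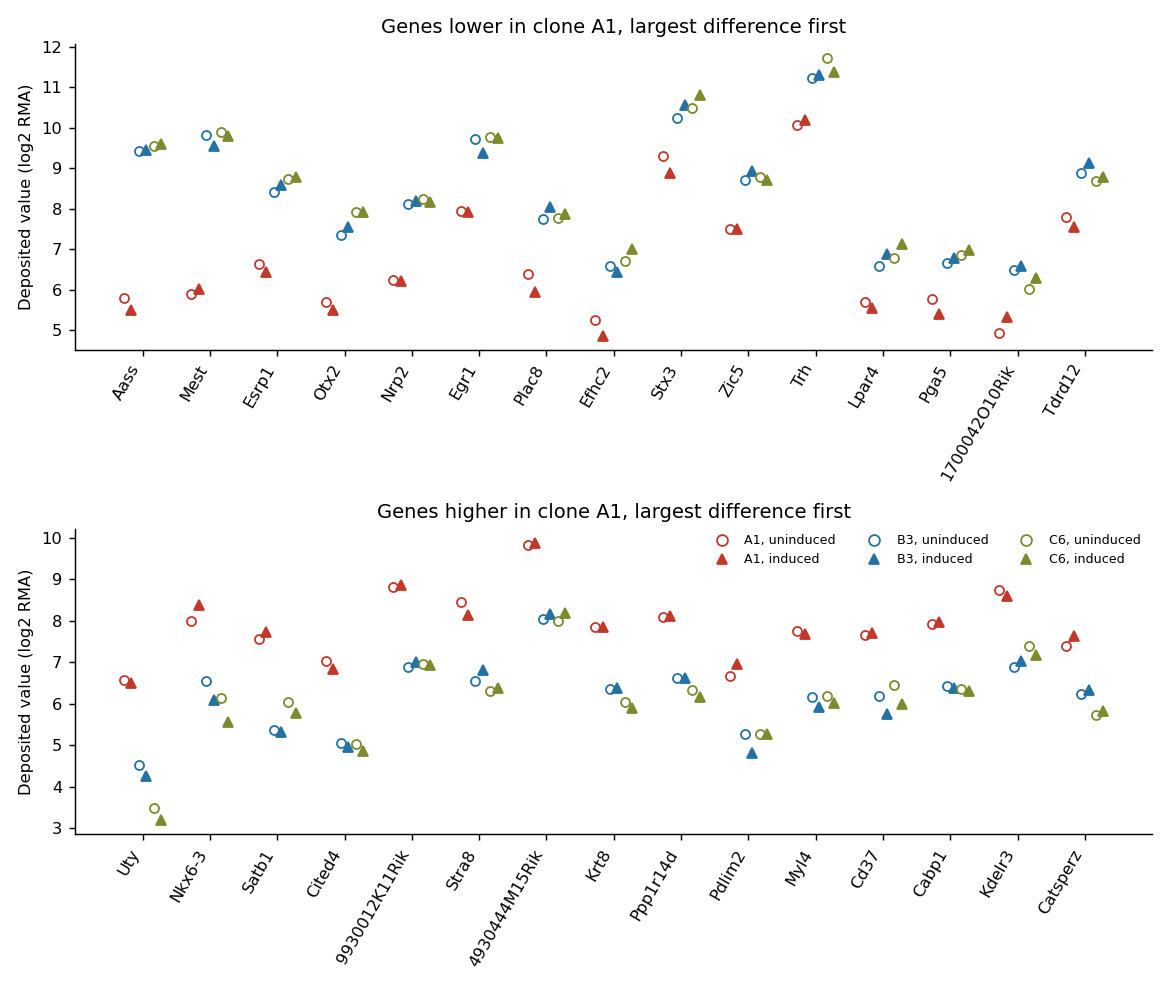
Values of the 15 called genes with the largest differences in each direction, as deposited log2 RMA values, with 1 point for each array (open circles uninduced, triangles induced). The A1 arrays (red) lie together and apart from those of B3 (blue) and C6 (green), by 3.85 for Aass at the left of the upper panel.

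Some of the genes that stood apart in A1 lay together on chromosomes 14 and 15. Most did not, and 64 of the 102 called higher genes and 31 of the 36 called lower ones lay outside the runs defined below. Genes with a mean of at least 6 were placed in chromosome order, and running medians over 21 neighbours were taken from the same differences, relative to the median of all such genes. A run is 15 or more neighbours whose running median passed 0.3. This limit was set with the values in view and the runs were chosen by them, so their counts are a description with no test. Of the 9561 genes with a mean of at least 6, 1.18% were called. The medians of the other autosomes and the X chromosome lay between -0.001 and 0.079, and that of chromosome 15 was 0.33. With dim genes (a mean under 6) included, the median of chromosome 15 was 0.07.

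The first run, of 53 genes from 9930012K11Rik to Lmo7 on chromosome 14, had a median difference of 0.86, or 1.81 times higher in A1. Of these genes 52 were higher and 22 were called. The 42 dim genes among them had a median of -0.03. The quartiles were 0.60 and 1.08. By the states as labelled, the median was 0.96 in the uninduced and 0.80 in the induced arrays, 0.98 against B3 and 0.78 against C6. The 248 genes before the run on the same chromosome had a median of 0.004. At its near edge, Bin3 differed by 0.20 and Egr3 by -0.31, and Ccar2 beside the run by 0.89.

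Within the run, 9930012K11Rik read 8.82 and 8.86 in A1 and 6.88 to 7.0 in the other arrays (1.90 ± 0.10, SE; adjusted p = 0.00158). The RNA 4930444M15Rik read 9.83 and 9.88 against 7.98 to 8.19 (1.77 ± 0.10, SE; adjusted p = 0.00224). These were the widest gaps in the run. Gtf2f2, a subunit of the general transcription factor TFIIF, read 10.70 and 10.56 against 9.20 to 9.51. Sucla2, a subunit of succinyl-CoA ligase, read 11.59 and 11.52 against 10.38 to 10.52, while its 2 other probe sets, both dim, had the opposite sign. Among further probe sets of the run's genes with a mean of at least 6, all 29 were higher in A1, with a median of 0.81. Nufip1, an RNA-binding protein, read 11.43 and 11.40 against 10.26 to 10.49. Pdlim2, a PDZ and LIM domain protein next to 9930012K11Rik, has a mean under 6 and was counted with the dim genes. It read 6.67 and 6.95 against 4.82 to 5.28 (1.65 ± 0.17, SE; adjusted p = 0.0153). Piwil2, a germline Piwi protein, was higher by 1.24, and Fgf17, a fibroblast growth factor, by 1.16. Some members did not share the difference. Gfra2, a receptor subunit, differed by -0.06 and Tpt1, one of the most abundant RNAs, by 0.24. Lpar6 and Rb1, the second of which contains the first in an intron, read 8.08 to 8.35 in A1, 7.83 to 8.17 in C6 and 6.67 to 7.11 in B3, so that B3 alone was low.

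A second run at the far end of the chromosome went the other way. All 17 genes from Tgds to Tmtc4 were lower in A1, with a median of -0.71, or 1.63 times lower, and 4 were called. By the same labels the median was -0.57 in the uninduced and -0.75 in the induced arrays, -0.80 against B3 and -0.82 against C6. Zic5, a zinc finger transcription factor, read 7.50 and 7.50 in A1 and 8.71 to 8.94 elsewhere (-1.28 ± 0.11, SE; adjusted p = 0.0136). Its neighbour Zic2, dimmer than the limit for the run, read 4.76 and 4.74 against 5.91 to 6.01 (-1.23 ± 0.10, SE; adjusted p = 0.0103). Abcc4, an efflux pump, read 8.64 and 8.75 against 9.53 to 9.75. Ggact, Ipo5 and Dock9 differed by -0.87, -0.81 and -1.14, of which the last was not called (adjusted p = 0.0528). Between the runs lay 6 genes with differences of 0.02 to 0.76.

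**Figure D2:**
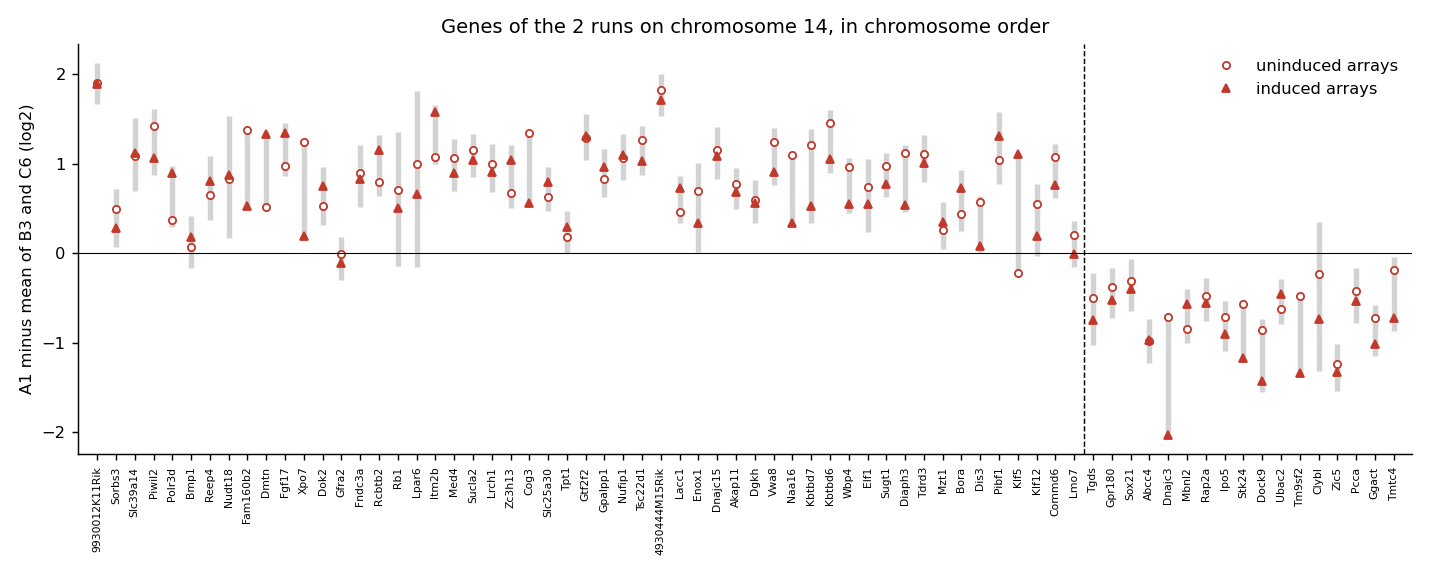
Difference of A1 from the mean of B3 and C6 on the log2 scale for each gene of the 2 runs on chromosome 14, in chromosome order, in uninduced (open circles) and induced arrays (triangles), with the limma 95% interval of the average as a grey bar. Left of the dashed line the 53 genes have a median of 0.86, and right of it all 17 averages are below 0.

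On chromosome 15 the difference was smaller and covered more genes. The run held 277 genes from Ly6e to Ppp1r1a, the last gene there with a mean of at least 6. It had a median of 0.44, or 1.36 times higher in A1. Of these, 253 were higher and 11 were called, and the 189 dim genes among them had a median of -0.03. The quartiles were 0.27 and 0.59. By the states as labelled, the median was 0.30 in the uninduced and 0.56 in the induced arrays, and it was 0.45 against B3 and 0.43 against C6. The 119 genes before it on the chromosome had a median of 0.001, with 60 higher and 1 called. Krt8 and Krt18, the keratin pair of simple epithelia, lie in the run. Krt8 read 7.85 and 7.84 against 5.89 to 6.38, with all 3 probe sets called, and Krt18 read 7.32 and 7.25 against 6.43 to 6.55. Kdelr3, a receptor that returns proteins to the endoplasmic reticulum, was higher by 1.54. Tmem106c and Slc48a1, a heme transporter, were higher by 1.35 and 1.16. Myc, in the same chromosome but before the run, read 9.24 and 9.26 against 8.54 to 8.74 and was not called (adjusted p = 0.0712).

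A run of 19 genes on chromosome 12, from Mirg to Coa8, had a median of 0.43 with 18 genes higher and none called. Here B3 was the clone apart. The median was 0.77 against B3 and 0.07 against C6, and the same genes had a median of -0.80 for B3 against the other clones. Mark3, a kinase of the run, read 9.54 and 9.48 in A1, 9.45 and 9.36 in C6 and 8.68 and 8.65 in B3. The runs together held 38 of the 102 called higher genes and 5 of the 36 called lower ones, dim genes included. Of the 18193 genes at any level, 31 lay within the run on chromosome 12 and 466 within that on chromosome 15. On chromosome 14, 95 lay within the higher run and 36 within the lower one. The number of DNA copies was not measured in these samples.

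**Figure D3:**
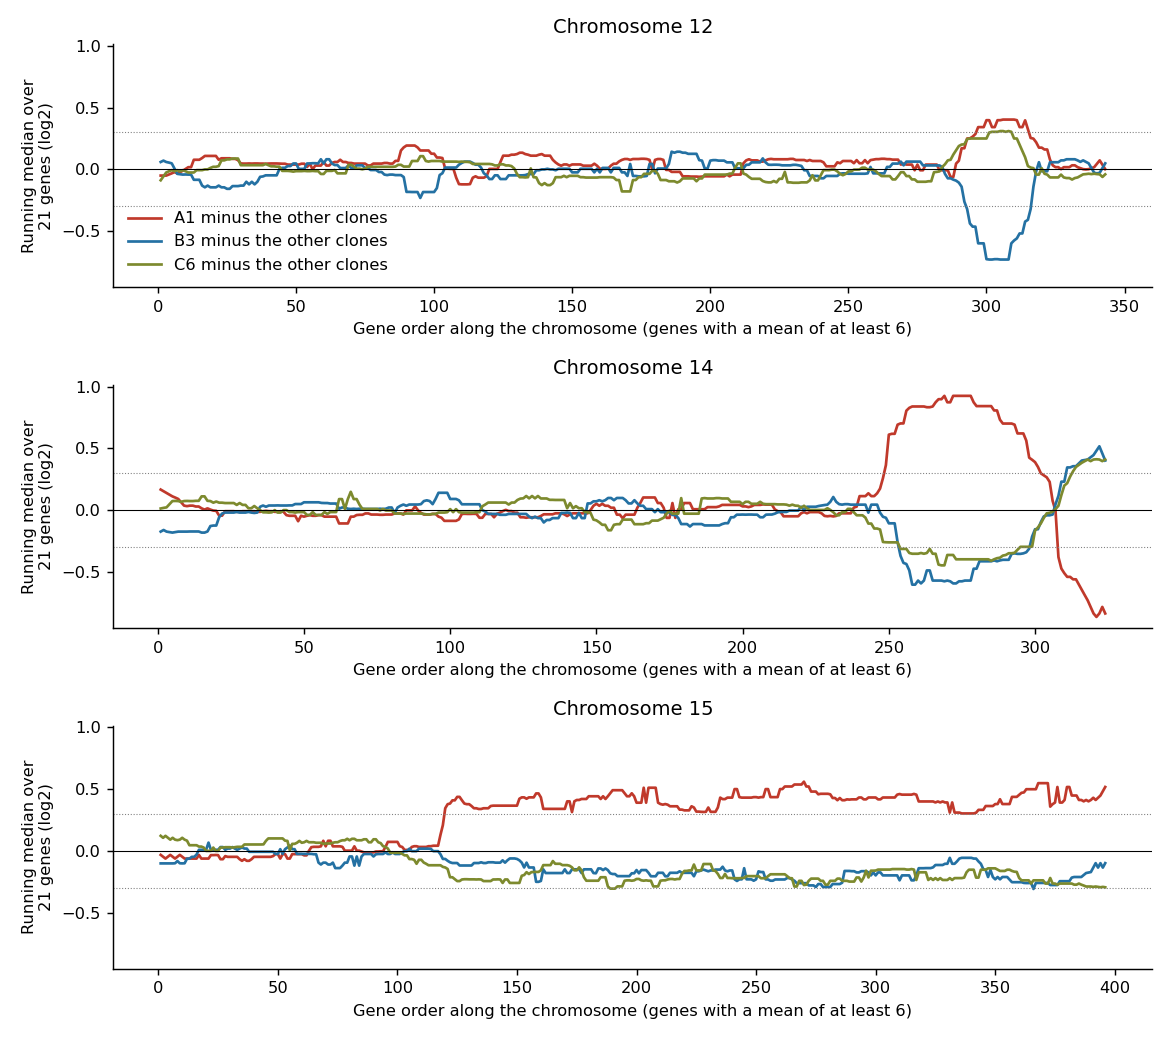
Running medians over 21 neighbouring genes with a mean of at least 6 on chromosomes 12, 14 and 15, relative to the median of all such genes, for each clone minus the mean of the other 2, on the log2 scale. The dotted lines mark 0.3 and -0.3. A1 (red) rises to 0.93 and drops to -0.86 on chromosome 14 and stays above 0.3 over the run on chromosome 15, whereas B3 (blue) drops to -0.73 on chromosome 12.

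Eif2s3y and Uty, genes of the Y chromosome, were highest in A1, lower in B3 and lowest in C6. Eif2s3y, a translation initiation factor subunit, read 9.35 and 9.03 in A1, 6.74 and 7.10 in B3 and 3.36 and 3.15 in C6. Its difference of 4.10 was wider than that of any called gene but was not called (adjusted p = 0.311), and B3 and C6 lay more than 3 log2 units from each other. Uty, a Y-linked relative of the histone demethylase gene Kdm6a, read 6.56 and 6.49, 4.53 and 4.25, and 3.48 and 3.19 in the same order. It was called, at 2.66 ± 0.36 (SE; adjusted p = 0.0361). A second Uty probe set, at 7.15 and 6.83 in A1, 3.97 and 4.35 in B3 and 2.54 and 2.71 in C6, was called as well (3.60, adjusted p = 0.0432). In the brightest probe sets of both genes the clones did not overlap. Uba1y, a ubiquitin-activating enzyme, had another order. One of its probe sets read 6.57 and 6.79 in A1, 6.54 and 6.45 in B3 and 3.22 and 2.58 in C6, and was the 1 probe set called for C6. Kdm5d, Usp9y and Zfy2 stayed at or under 4.49 in all arrays, and the brighter probe set of Sry read 5.83 to 6.09. Of the 7 measured genes in the Y list, Uty was the 1 called, beside 0.759% of all genes. Orly and Tspy-ps, Y genes outside the list, stayed at or under 4.56 without a call.

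**Figure D4:**
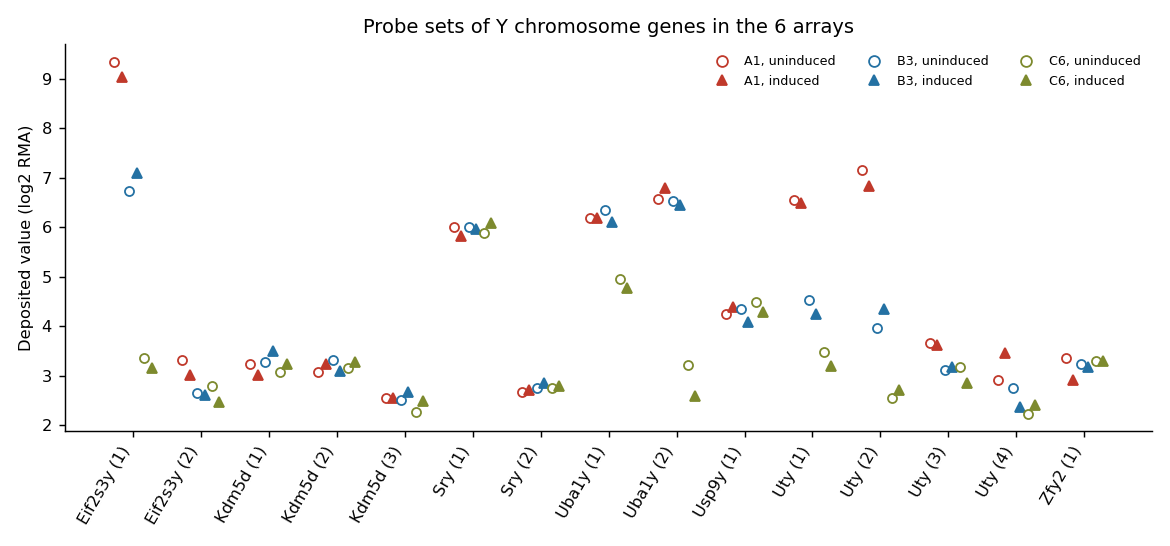
Deposited log2 RMA values of every probe set of 7 genes of the Y chromosome in the 6 arrays, with probe sets of a gene numbered from the brightest and colours and symbols as for the leading genes. Eif2s3y (1) and both bright Uty probe sets descend from A1 through B3 to C6, while Uba1y (2) is near 6.5 in A1 and B3 and near 3 in C6.

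Pluripotency factors differed little between A1 and the other clones. Of 12 core factors 8 were higher and 4 lower, with a median of 0.06 and no call. Pou5f1 read 12.96 and 13.15 in A1 and 12.70 to 13.08 in the other arrays, Nanog 12.36 and 12.52 against 12.12 to 12.36, and Sox2 12.22 and 12.13 against 12.32 to 12.38. Their differences were 0.16, 0.14 and -0.17. The 24 measured naive pluripotency genes had a median of 0.01, also with no call. The widest difference among them was in Dppa3, a maternal factor that protects DNA methylation marks in the zygote. Dppa3 read 6.41 and 6.29 in A1, 7.50 and 7.62 in B3 and 8.58 and 8.80 in C6 (-1.77, adjusted p = 0.144).

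Primed epiblast genes had the lowest median of the 35 lists described, at -0.34 over 16 measured genes. By the states as labelled, the median was -0.46 in uninduced and -0.25 in induced arrays, and -0.40 against B3 and -0.29 against C6. Of these genes 12 were lower, 3 of them called, and none of the 4 higher ones was called, beside 0.198% of all genes called lower. The higher ones were Sox3, Pou3f1, Dnmt3a and Foxd3, at 0.345, 0.324, 0.275 and 0.009. Otx2, a homeobox factor of the early epiblast, read 5.70 and 5.50 in A1, 7.35 and 7.55 in B3 and 7.91 and 7.93 in C6. Its difference was -2.08 ± 0.19 (SE; adjusted p = 0.0136). The other called members were Zic2 and Zic5, which neighbour each other at the run at the end of chromosome 14, so they are not separate in position. The rank of the list depends on this pair. Without it the middle values of the list are -0.117 (Cer1) and -0.102 (Dnmt3l), and the neuronal list has a lower median, -0.139. Dnmt3b, a DNA methyltransferase, and Lef1, a Wnt effector, differed by -0.63 and -0.92 without a call (adjusted p = 0.0854 and 0.164). Fgf5, a marker of the primed state, was dim in every array and differed by -0.03.

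Most lists of other lineages and pathways gave no call. Trophectoderm genes had 2 calls in 19, Krt8 and Krt18, both of chromosome 15 and higher, beside 0.561% of all genes called higher. The median was -0.07, with 11 lower and 8 higher. Among the transcription factors of the list, Cdx2, Elf5 and Gata3 stayed at or under 5.03. Others were brighter in all clones, with Eomes at 5.99 to 6.38, Gata2 at 6.71 to 7.13 and Tfap2c at 7.6 to 9.01. Krt8 and Krt18 were also the 2 calls among 28 contractile cytoskeleton genes, whose median was 0.05, again beside 0.561% called higher. Of 25 primitive and visceral endoderm genes 21 were higher, beside 8157 of all 18193 genes, with a median of 0.20 and no call. Of the 25, 10 had a mean of at least 6. Neural ectoderm, mesoderm, fibroblast and Hox genes had medians of -0.03, 0.04, -0.09 and -0.05 with no call. Of the 20 fibroblast genes 13 were lower and 7 higher, and 8 had a mean of at least 6. Thy1 and Vim were higher by 0.835 and 0.732, and Fn1 differed by -0.444, all without a call. Cdh2, which encodes N-cadherin, was lower by -1.11 ± 0.16 (SE; adjusted p = 0.0428), the 1 call in 20 extracellular matrix and adhesion genes, beside 0.198% of all genes called lower. The median of that list was 0.06. Cdh1, which encodes E-cadherin, differed by -0.36 (adjusted p = 0.284). Of 20 neuronal genes 15 were lower and 5 higher, with a median of -0.14. Mapt, the tau gene, was the 1 call among them (0.78 ± 0.10, SE; adjusted p = 0.0353), beside 0.561% of all genes called higher. Tubb3, a neuronal tubulin, and Nefm, a neurofilament subunit, differed by -0.58 and -0.56 without a call.

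Signalling lists held few or no calls. In the list of FGF and ERK feedback and immediate early genes 2 of 25 were called, beside 0.759% of all genes. Phlda1 was higher by 1.18 ± 0.13 (SE; adjusted p = 0.0185) and Egr1 lower, and the median was 0.09. Fos, Spry2 and Dusp6, which answer to the same kinase, differed by 0.11, 0.25 and 0.46 without a call. Inhbb, an activin subunit, was higher by 1.15 ± 0.16 (SE; adjusted p = 0.0428), the 1 call in 22 Nodal and BMP genes, beside 0.561% of all genes called higher. Its other probe set, with a mean of 7.43, differed by 0.42 without a call. Of these 22 genes 16 were higher, with a median of 0.15. No call was made among 20 Wnt genes, 26 ATF4 response genes, 19 unfolded protein response genes, 31 cell cycle genes or 17 ribosomal protein genes, whose medians lay between -0.04 and 0.13. The same held for heat shock, p53, hypoxia, cholesterol, oxidative phosphorylation, chromatin, glutathione, protocadherin and interferon genes, with medians between -0.10 and 0.08. Single members of the lists without a call still differed more widely, in both directions. Examples were Dnajc3 (-1.374) of the unfolded protein response, Sfrp1 (0.997) and Lef1 (-0.924) of the Wnt list and Cth (0.827) of the ATF4 response.

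The medians of the germline and 2-cell-like lists were unlike against the other clones. Of 27 germline genes 19 were higher in A1, with a median of 0.35, but this was 0.55 against B3 and 0.08 against C6. Piwil2, of the chromosome 14 run, was the 1 call, beside 0.561% of all genes called higher. Rhox5 read 9.39 and 9.05 in A1, 9.05 and 9.49 in C6 and 7.16 and 7.42 in B3. For the 2-cell-like state, 4 genes were measured and had a median of 0.92 against B3 and -0.02 against C6.

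**Figure D5:**
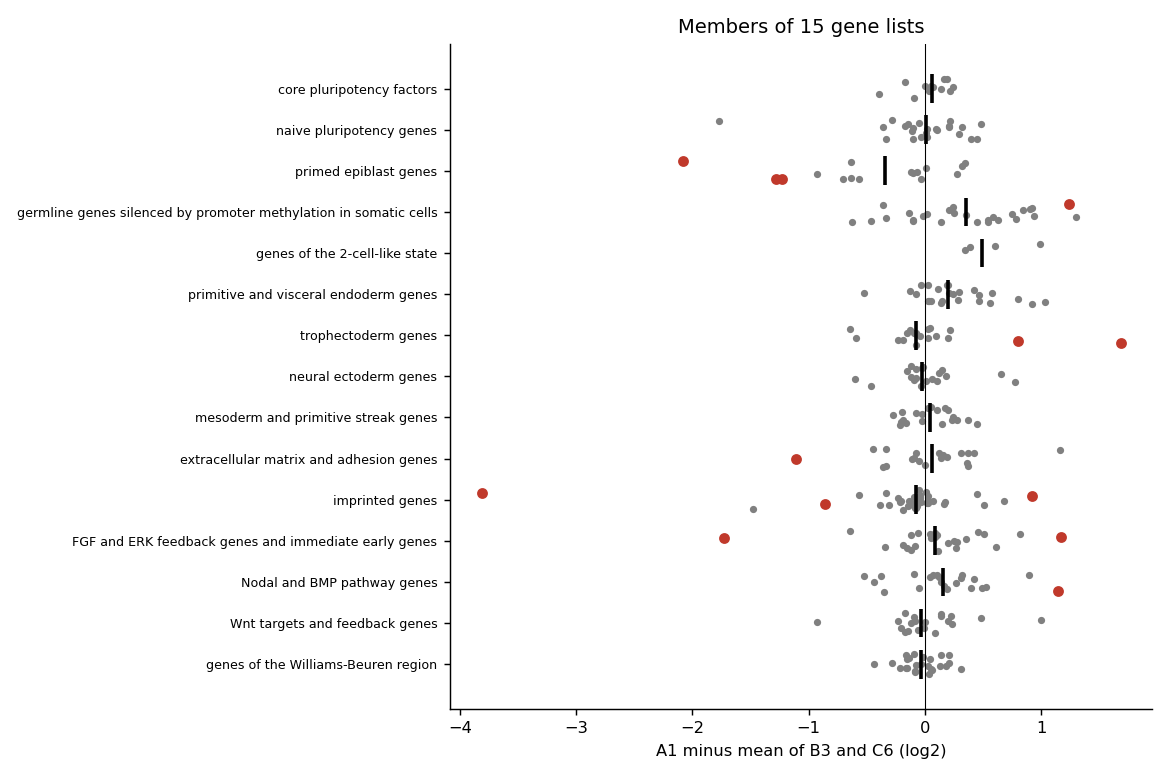
Difference of A1 from the mean of B3 and C6 on the log2 scale for the members of 15 gene lists, with 1 point for each gene, genes called by limma in red and the list median as a black bar. The primed epiblast list, with the neighbours Zic2 and Zic5 counted, has the lowest median, -0.34, and Mest at -3.81 is the leftmost point.

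The genes related to the transgene did not pass the test. Mouse Gtf2i was measured by 4 probe sets, of which the brightest read 10.31 and 10.46 in A1, 10.69 and 10.79 in B3 and 11.02 and 10.80 in C6. Its difference was -0.44 (95% interval -0.74 to -0.14, adjusted p = 0.316), and the others differed by -0.30, 0.12 and 0.13. These probe sets do not check the transgene, since none was aligned to the human coding sequence. Gtf2ird1, Gtf2ird2 and Eif4h differed by 0.06, -0.16 and 0.03. Over 25 genes of the Williams-Beuren region the median was -0.04, and over 10 genes beside Rosa26 it was 0.01, with no call in either list.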

How the data were processed

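RNA of 6 samples was measured on Affymetrix whole-genome mouse arrays. The deposited values are on the log2 scale, and the authors obtained 1 value for each probe set by robust multiarray averaging, for which affy and RMA are named in the submitters' processing notes with no version. They were not processed further. Of 45101 probe sets, 64 Affymetrix controls were left out. By the platform annotation 34945 of the other 45037 had a single symbol, 932 more than that and 9160 none. Chromosomes and gene order came from a RefSeq table (GRCm38.p6), which matched 34741 probe sets, and each of 18193 genes was represented by its brightest probe set. limma 3.58.1 in R 4.3.3 fitted A1 against B3 and C6 with the state as covariate (lmFit, eBayes, two-sided). The p-values were adjusted by Benjamini-Hochberg over the 45037 probe sets, at a threshold of 0.05. It took the place of the t-test that the methods name. The script was tested on simulated data. The number of arrays limits the precision, and the median half-width of the 95% interval was 0.311 where the mean was at least 6.

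Named genes are the probe sets of Gtf2i with its relatives and Eif4h, the 15 called genes with the largest difference in each direction and a mean of at least 6 in either arm, called members of each list or up to 3 with the smallest p, up to 5 genes of each run, and 3 pluripotency factors. Other genes, such as neighbours of these or members that did not move, were named after their values were seen. The comparison, the gene lists and the rule were chosen with earlier results of these data known. The labels name no separate cultures beyond the clones. Alternatives covered the state term, the clone as a block or averaged, the test, normalization, filters and the threshold, and each array or clone was left out in turn.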

Additional observations from a re-analysis of the deposited data

How the results depend on the processing

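The 221 calls for A1 became 119 with only probe sets of a mean of at least 6, 447 without the state term, 30 without clone B3, 13 at an adjusted p of 0.01, 10 with the methods' t-test after adjustment and 6 with 1 average for each clone. They ranged from 3 to 127 when 1 array was left out, where a lone A1 array is assumed to vary like the others. They stayed between 153 and 296 with the interaction, the clone as a random replicate block (218 calls), trend and robust variances, or array weights. The same range held with quantile normalization, median centring, 1 probe set for each gene, or without clone C6. The correlation estimated within clones for the random block was 0.00661. That fit was thus nearly the main one and made little allowance for likeness between arrays of 1 clone. None of the 47 named genes called changed its sign under any setting. Of these, 45 lost their call without the induced A1 array, 38 without the uninduced one and 42 with 1 average for each clone. For B3, in settings added after the data were seen, the 53 calls became 0 with the interaction, 85 with the clone as a random block and 14 with a mean of at least 6, and ranged from 0 to 59 when 1 array was left out. The single call for C6 became 0 with a mean of at least 6 and ranged from 0 to 1 when 1 array was left out. The 3 probe sets whose difference changed with state became 1219 with each clone as a fixed replicate block. With windows of 11 or 41 genes the runs on chromosome 14 kept medians of 0.85 and 0.86 for the higher one, and the lower one was found with 11 but not with 41, as was the run on chromosome 12. The chromosome 15 run broke into 6 pieces with 11. The higher run on chromosome 14 had a median of 0.98 without clone C6 and 0.72 over all probe sets of each gene. The medians of the runs ranged from 0.28 to 0.57 (chromosome 12), 0.77 to 0.96 and -0.77 to -0.57 (chromosome 14) and 0.30 to 0.56 (chromosome 15) when 1 array was left out. The median of the primed epiblast list lay between -0.46 and -0.25 over 13 alternatives and that of the germline list between 0.08 and 0.55. The cause of these changes was not tested.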

Other observations

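The other probe sets whose difference between A1 and the other clones changed with the state, beside that of Cbl, were of Smc4 and Akap9. That of Smc4, a condensin subunit, read 10.98 in the uninduced and 9.40 in the induced A1 array, against 9.54 and 11.04 in B3 and 9.53 and 11.02 in C6. That of Akap9, an anchor protein of the centrosome and Golgi, read 5.68 and 3.98 in A1, 3.80 and 5.64 in B3 and 3.96 and 5.68 in C6. Neither was the brightest probe set of its gene.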
